A study of Mus musculus with 10 samples.

Results

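Mitochondrial ribosomal proteins are encoded by nuclear genes, translated in the cytosol and imported into mitochondria, where they assemble on 2 mitochondrial rRNAs into the ribosome that translates the 13 mRNAs of the mitochondrial genome. Genes were taken from the deposited count table by symbol, Mrps or Mrpl followed by a number and at most 1 letter, and names marked as pseudogenes (1 gene, Mrps36-ps1) were left out. The rule gave 76 of 33006 genes, of which 29 carry an S name, for the small subunit, and 47 an L name, for the large subunit. The samples were E14 cells, a line of mouse embryonic stem cells (clone 38 per the file headers), in which the histone chaperone NPM1 carries an auxin-inducible degron (NPM1AID). All groups were grown with LIF, PD0325901, which inhibits MEK, at 1 µM and CHIR99021, which inhibits GSK3, at 3 µM. RNA came from cells released from G1 for 12 h without auxin (2 libraries) or with auxin (2 libraries), which triggers destruction of the tagged protein. For H3K27me3, a histone modification of Polycomb-silenced genes, there was 1 ChIP-seq peak list (6 h, no auxin) and 1 CUT&RUN peak list (12 h, control). Untagged cells given auxin were not analysed here, so an effect of auxin itself and of NPM1 loss cannot be told apart, and the RNA values stem from 1 clone. No label says that the libraries of a group came from separate cultures, so p-values measure only the spread between these libraries.

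The mitoribosome descends from a bacterial ribosome and is unusually rich in protein. Some of its proteins have bacterial counterparts, while others joined the particle in the course of mitochondrial evolution. Its products are core subunits of the respiratory chain and of ATP synthase, which are completed with subunits made in the cytosol. By these classes the members comprised 16 small-subunit and 30 large-subunit proteins with a bacterial counterpart, and 10 small-subunit and 17 large-subunit proteins specific to mitochondria. Another 3 S-named members lie elsewhere: Mrps18a and Mrps30 encode proteins of the large subunit, and Mrps36 encodes a protein of the 2-oxoglutarate dehydrogenase complex.

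Libraries held 13353446 to 16046290 counts, and mitochondrially encoded genes took 3.46% to 4.96% of them. The degron acts on protein, so the Npm1 transcript does not check the labels: it stood at 1058 and 951 CPM (counts scaled to a common library size) without auxin and at 843 and 767 CPM with auxin (log2 fold change −0.32 ± 0.06 SE, adjusted p = 0.00337, edgeR). All 10 embryonic stem cell markers passed the expression filter, with a summed level of 7295 to 7386 CPM without auxin and 6708 to 6846 CPM with it. Of these markers 6 were called lower, among them Utf1 and Lin28a, and Nanog was called higher. Of 10 fibroblast markers 5 passed the expression filter, and their summed level was 10.3 and 14.9 CPM without auxin and 18.4 and 26.7 CPM with auxin, where Pdgfrb was called higher. The part of these marker levels in the results below was not tested.

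Members supplied 0.393% and 0.376% of all counts without auxin and 0.360% and 0.362% with auxin. Both auxin libraries lay below both others, at 0.939 times their mean. For S-named members the share was 0.133% and 0.127% without auxin and 0.124% and 0.126% with auxin, a ratio of 0.961. L-named members supplied 0.260% and 0.248% without auxin and 0.235% and 0.237% with it, a ratio of 0.927. Counts of S-named members per count of L-named members were therefore 0.510 and 0.514 without auxin and 0.529 and 0.531 with auxin. The groups did not overlap, but the difference was not tested. Mrps2, which was not called, supplied 2361 of 19629 and 2266 of 19358 S-named counts without auxin. With auxin it supplied 2337 of 16621 and 2713 of 20141. The ratio thus rests in part on this gene and does not measure a shift across all S-named members. In such bulk samples fewer cells that express a gene and less RNA per cell cannot be told apart.

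Of the 76 members, 75 passed the expression filter and entered the fit across 13522 genes. At an adjusted p under 0.05 (edgeR quasi-likelihood test, Benjamini-Hochberg over all tested genes), 24 members fell with auxin, 0 rose and 51 were not called. Among all tested genes 14.5% were called lower and 13.0% higher, so the members' share of 32.0% lower was above the background and their 0 higher below it. At an unadjusted p under 0.05, 41 members were lower and 1 was higher. The log2 fold changes ran from −0.48 to 0.25, with a median of −0.19 against 0.01 over all tested genes, and 68 of 75 were negative. In 61 members (81.3%) both auxin libraries lay below both libraries without auxin, an arrangement found in 31.8% of all tested genes. The opposite arrangement occurred in 3 members (Mrpl14, Mrps23 and Mrpl23) and in 33.0% of all tested genes, and in 11 members the groups overlapped.

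The count of calls changed with single libraries and with the scaling. Without replicate 1 of the libraries without auxin, 6 of 75 members (8.00%) were called lower against 8.98% of all tested genes, with a median of −0.15. Without replicate 2 of the auxin libraries 14 were lower, against 11.6% of all tested genes, and DESeq2 called 13 lower and 0 higher, against 11.7% and 7.10% of the genes it gave an adjusted p. Scaling to library totals with no further factors left 7 members lower, against 7.31% of all tested genes, and turned 1 (Mrpl14) into a called rise. Over all tested genes that scaling gave 988 lower and 2735 higher calls, in place of 1964 and 1759. It moved the median of all tested genes to 0.11 and the members' median to −0.10. Scaling factors shift all genes by nearly the same amount. The members' distance of −0.21 from all tested genes could therefore not change with the scaling. Mrpl52, Mrpl12, Mrps18b and Mrps34 were called lower in the main test and in each of the 12 alternative settings.

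**Figure D1:**
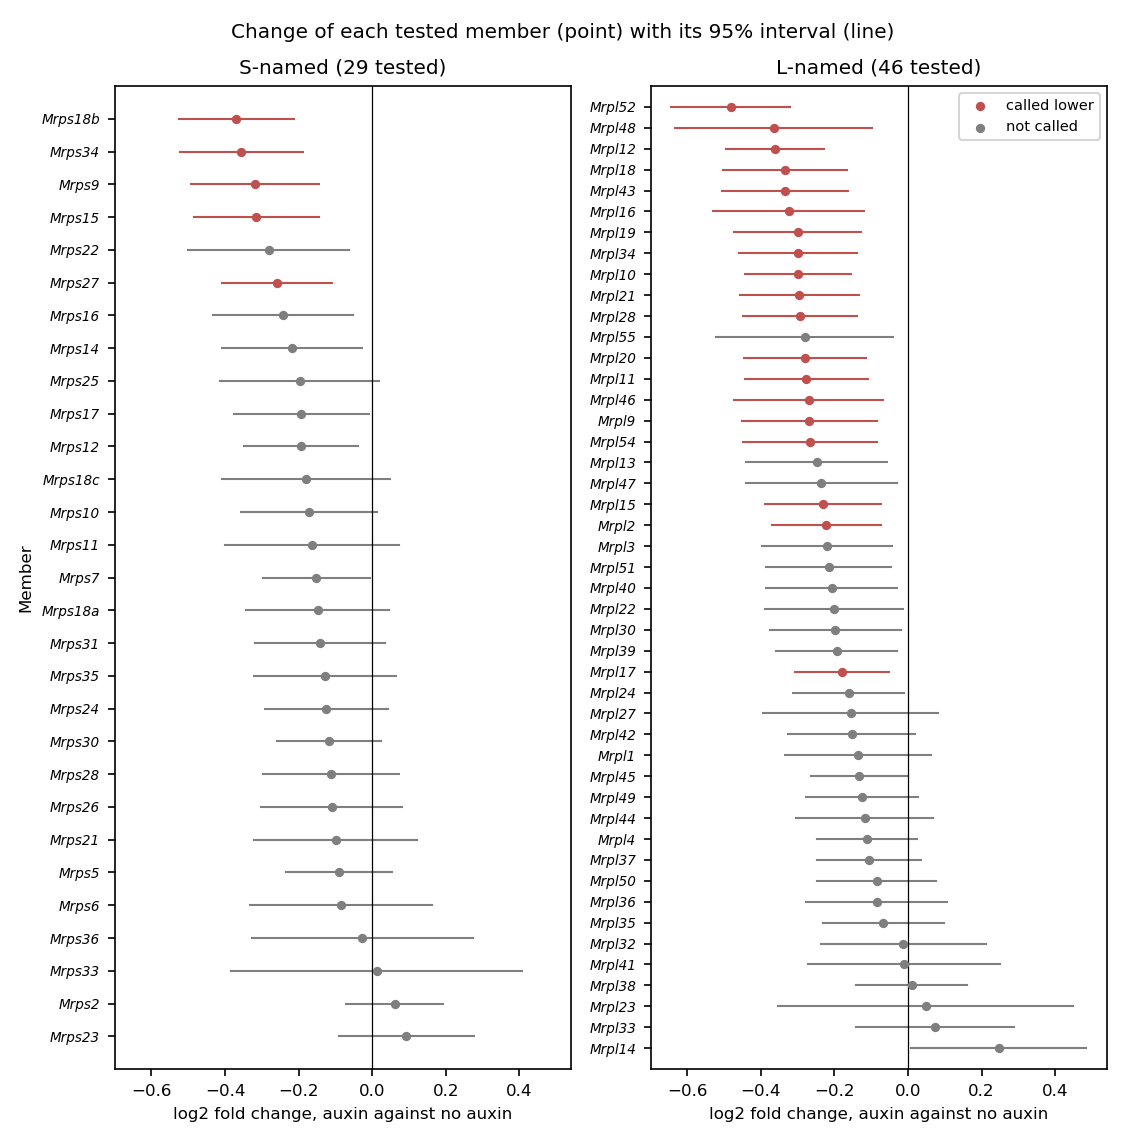
Change of each tested member with auxin, on the log2 scale (x axis), as a point with its 95% interval (line), S-named members on the left and L-named members on the right. Called members are in red: 5 of 29 S-named and 19 of 46 L-named, all to the left of 0.

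The members' promoters are shown here for the genes on which the account turns: Mrpl52 and Mrps18b, which fell most among L-named and S-named members; Mrpl12 and Mrpl10, whose products form the factor-binding stalk; Mrpl32, which holds the most NRF1 matches; and Mrpl14 and Mrps2, which ran against the others. Mrpl32, Mrpl14 and Mrps2 were chosen after their values were seen. Sequences are from RefSeq (GRCm38.p6), 250 bases before the annotated start and 30 bases after it, 5′ to 3′ on the gene's strand. Capitals mark matches, on either strand, to 5 short motifs: the NRF1 core GCATGCGC, the GABP/ETS core CCGGAAGT, the YY1 core AAGATGGC, the E-box CACGTG and the GC box GGGCGG. Overlapping matches were each counted. NRF1, GABP and YY1 are transcription factors known to act on nuclear genes of mitochondrial proteins.
Mrpl52: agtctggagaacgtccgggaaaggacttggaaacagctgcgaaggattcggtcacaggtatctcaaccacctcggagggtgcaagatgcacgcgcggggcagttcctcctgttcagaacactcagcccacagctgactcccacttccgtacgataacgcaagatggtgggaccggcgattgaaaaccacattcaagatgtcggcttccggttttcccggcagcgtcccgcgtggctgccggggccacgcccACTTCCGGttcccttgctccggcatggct
Mrps18b: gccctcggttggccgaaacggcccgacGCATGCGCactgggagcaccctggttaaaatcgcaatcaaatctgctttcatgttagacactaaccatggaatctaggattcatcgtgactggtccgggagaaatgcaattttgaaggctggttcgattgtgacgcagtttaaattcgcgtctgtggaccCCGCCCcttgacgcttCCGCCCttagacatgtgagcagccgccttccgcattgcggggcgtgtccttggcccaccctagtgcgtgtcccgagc
Mrpl12: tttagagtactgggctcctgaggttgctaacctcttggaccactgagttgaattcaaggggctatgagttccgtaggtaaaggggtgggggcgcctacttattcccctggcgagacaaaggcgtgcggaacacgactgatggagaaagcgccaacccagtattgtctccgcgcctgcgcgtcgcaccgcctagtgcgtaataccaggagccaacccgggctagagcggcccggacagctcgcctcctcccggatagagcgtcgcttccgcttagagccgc
Mrpl10: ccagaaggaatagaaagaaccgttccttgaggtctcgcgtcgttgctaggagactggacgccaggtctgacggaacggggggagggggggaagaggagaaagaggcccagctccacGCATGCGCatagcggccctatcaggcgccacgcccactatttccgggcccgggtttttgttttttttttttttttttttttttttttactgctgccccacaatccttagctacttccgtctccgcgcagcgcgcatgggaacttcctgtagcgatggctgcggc
Mrpl32: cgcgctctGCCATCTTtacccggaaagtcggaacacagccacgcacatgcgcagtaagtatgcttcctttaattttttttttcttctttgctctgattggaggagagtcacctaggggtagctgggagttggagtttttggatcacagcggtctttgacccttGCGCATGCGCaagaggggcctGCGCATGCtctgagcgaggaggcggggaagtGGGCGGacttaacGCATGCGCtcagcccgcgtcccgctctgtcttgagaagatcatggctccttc
Mrpl14: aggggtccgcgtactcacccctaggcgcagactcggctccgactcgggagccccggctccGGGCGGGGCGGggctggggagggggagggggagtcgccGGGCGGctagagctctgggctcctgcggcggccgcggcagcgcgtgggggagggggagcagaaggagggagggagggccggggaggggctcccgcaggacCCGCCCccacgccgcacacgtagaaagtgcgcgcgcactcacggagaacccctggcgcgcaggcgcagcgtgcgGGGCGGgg
Mrps2: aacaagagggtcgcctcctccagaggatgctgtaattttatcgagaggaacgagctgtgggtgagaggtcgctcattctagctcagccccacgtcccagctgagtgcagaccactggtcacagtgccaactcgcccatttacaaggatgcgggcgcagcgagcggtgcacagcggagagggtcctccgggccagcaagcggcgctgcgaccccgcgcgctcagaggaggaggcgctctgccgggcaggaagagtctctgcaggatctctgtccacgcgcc
The Mrpl52 promoter (chr14:54426659-54426938, plus strand) held 1 GABP/ETS match, just after the start. The Mrps18b promoter (chr17:35916411-35916690, minus strand) held 1 NRF1 match and 2 GC boxes, and a further NRF1 match followed after the printed bases. Mrpl12 (chr11:120484387-120484666, plus strand) and Mrps2 (chr2:28467816-28468095, plus strand) held none of the 5, although Mrpl12 fell and Mrps2 did not. Mrpl10 (chr11:97041332-97041611, plus strand) held 1 NRF1 match. Mrpl32 (chr13:14613008-14613287, minus strand) held 4 NRF1 matches, 1 YY1 match and 1 GC box. Mrpl14 (chr17:45686099-45686378, plus strand) held 5 GC boxes.

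A promoter was listed for 67 of the 76 members, and 3 of them had more than 1. Matches below were counted in 250 bases before the start and 50 after it, a longer stretch than the printed one. A match to the YY1 core stood in 12 of 67 members (17.9%), in 5.11% of tested genes that are no members, in 5.99% of equally abundant genes and in 3.19% of all genes with a promoter in the table. The GABP/ETS core stood in 12 members (17.9%), 8.80% of tested genes, 11.7% of equally abundant genes and 4.31% of all genes. The NRF1 core stood in 8 members (11.9%), 6.12%, 7.28% and 3.05% in the same order. The GC box stood in 33 members (49.3%), fewer than the 70.3% of tested genes and more than the 38.2% of all genes, and the E-box in 5 members (7.46%) against 12.0% and 8.09%. Mrpl33 was the 1 member with both an NRF1 and a GABP/ETS match, 19 held either, and 21 held none of the 5 motifs. Median GC content was 58.0% in members and 61.2% in other tested genes. Tested members with a GABP/ETS match had a median log2 fold change of −0.24 (5 of 12 called lower) and those without it −0.17 (15 of 54). Members with a YY1 match had −0.14 (1 of 12) against −0.20 (19 of 54). Medians lay closer for the other motifs: −0.20 (4 of 8) against −0.18 (16 of 58) for NRF1. For the E-box they were −0.18 (2 of 5) against −0.19 (18 of 61), and for the GC box −0.18 (9 of 33) against −0.19 (11 of 33). These are descriptions of letters in a window, with no test, and say nothing of which factors bind there.

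L-named members made up most of the calls. Of 46 tested, 19 fell (41.3%), with a median log2 fold change of −0.21 and 42 negative values. Of 29 S-named members 5 fell (17.2%, against 14.5% of all tested genes), with a median of −0.15 and 26 negative values. Without replicate 1 of the libraries without auxin, 4 L-named (8.70%) and 2 S-named members (6.90%) were called lower, close to each other and to the 8.98% of all tested genes. With auxin replicate 2 left out, the counts were 10 L-named and 4 S-named, and with DESeq2 9 and 4. Median standard errors in the main test were 0.085 for S-named and 0.078 for L-named members. Their median levels without auxin were 38.4 and 53.1 CPM in the same order. The difference between the subunits was not tested. With Mrps18a and Mrps30 moved to the large subunit and Mrps36 left out, 5 of 26 small-subunit and 19 of 48 large-subunit members fell, with medians of −0.17 and −0.20. Large-subunit proteins with a bacterial counterpart held the largest share of calls, 14 of 30 with a median of −0.23, followed by large-subunit proteins specific to mitochondria, 5 of 16 with −0.17. Small-subunit proteins gave 2 of 16 (bacterial counterpart) and 3 of 10 (specific), both with a median of −0.17. Of the 3 members placed elsewhere 0 were called.

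Mrpl52 (chromosome 14, 54426909 to 54429750, mm10, plus strand), a mitochondria-specific protein of the large subunit, fell most. Its level was 59.3 and 57.5 CPM without auxin and 40.9 and 42.6 CPM with auxin. The groups were far apart relative to the spread within them, and the fall was 1.40-fold (log2 −0.48 ± 0.07 SE, adjusted p = 0.000789). Mrpl12 (chromosome 11, 120484613 to 120489065, plus strand), the homologue of the bacterial stalk protein that recruits translation factors, went from 114 and 111 CPM to 85.6 and 89.3 CPM. This fall of 1.28-fold (log2 −0.36 ± 0.06, adjusted p = 0.00135) also cleared the spread. Mrpl10, the stalk's base, went from 89.6 and 84.1 CPM to 71.4 and 69.8 CPM (log2 −0.30 ± 0.07, adjusted p = 0.00615). Mrpl11, which lies beside the stalk at the factor-binding centre, went from 54.2 and 51.0 CPM to 44.7 and 42.2 CPM (log2 −0.28 ± 0.08, adjusted p = 0.0203). All 3 genes of this region were called lower, where 41.3% of tested L-named members were, and the region was not tested as a set. Both auxin libraries lay below both others in each, as in 82.6% of tested L-named members.

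Mrpl18, Mrpl43 and Mrpl16 completed the largest falls of the large subunit. Mrpl18 (chromosome 17, 12911349 to 12916345, minus strand), with a bacterial counterpart, went from 88.3 and 79.7 CPM to 70.3 and 63.1 CPM (log2 −0.33 ± 0.08, adjusted p = 0.00805). Mrpl43 (chromosome 19, 45005014 to 45006442, minus strand), specific to mitochondria, went from 66.0 and 59.7 CPM to 48.2 and 51.4 CPM (log2 −0.33 ± 0.08, adjusted p = 0.00843). Mrpl16, a conserved protein near the peptidyl transferase centre, went from 45.8 and 39.1 CPM to 34.6 and 33.2 CPM (log2 −0.32 ± 0.09, adjusted p = 0.0235). In these 3 genes replicate 1 without auxin was the highest library, and its removal ended each call, as it did for Mrpl10, Mrpl11 and Mrpl48. With auxin replicate 2 left out, the calls of Mrpl11, Mrpl16 and Mrpl48 were lost as well, and that of Mrpl48 was lost without either other library. Mrpl48 was the weakest of the large falls: it went from 14.3 and 14.8 CPM to 11.1 and 11.5 CPM (log2 −0.36 ± 0.12, adjusted p = 0.0453), and 30.5% of its exon bases are shared on the same strand with D630004N19Rik. Reads in shared bases cannot be assigned to 1 gene, so its level is uncertain. Mrpl45, which anchors the mitoribosome to the inner membrane, stood at 161 and 148 CPM without auxin and 144 and 139 CPM with auxin and was not called (log2 −0.13 ± 0.06, adjusted p = 0.123).

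**Figure D2:**
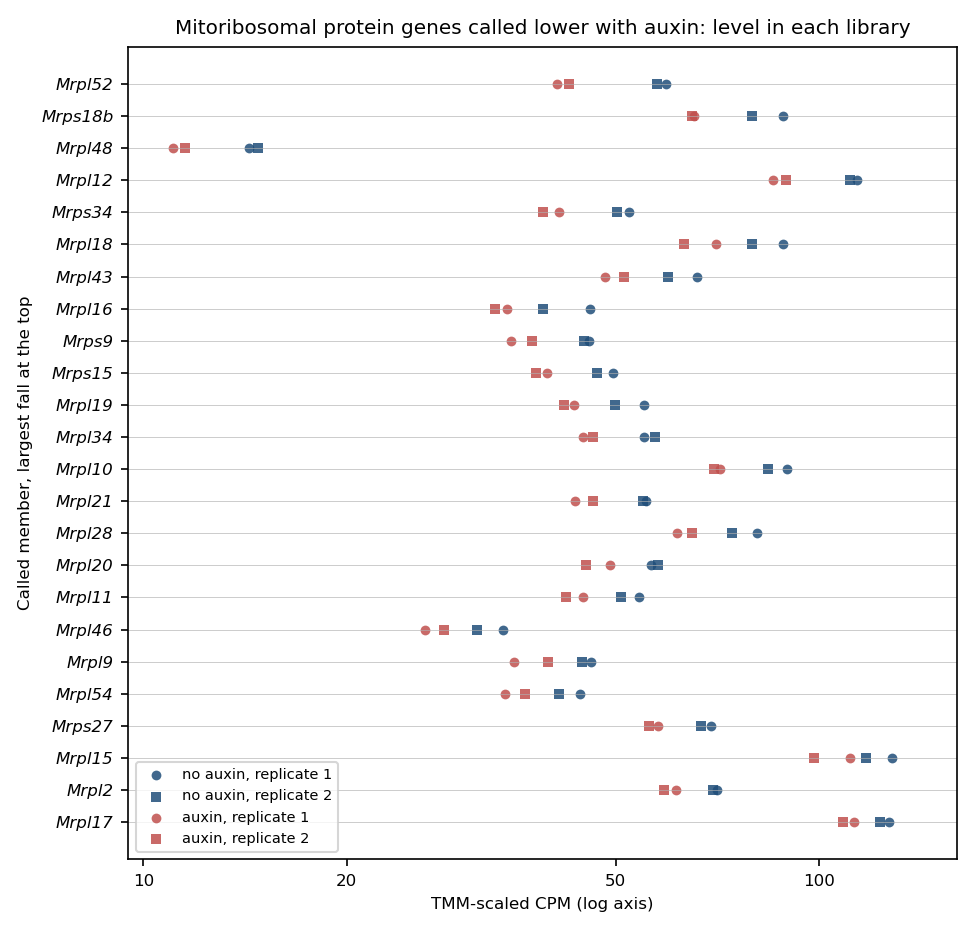
Level of the 24 called members (y axis, largest fall at the top) in each of the 4 libraries, as CPM scaled by TMM factors on a log axis (x axis). In every gene shown both auxin libraries (red) lie to the left of both libraries without auxin (blue), as for Mrpl52 at 40.9 and 42.6 against 59.3 and 57.5 CPM. The genes were picked by their calls in these same libraries, and 81.3% of all tested members have this arrangement.

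In the small subunit Mrps18b (chromosome 17, 35910379 to 35916389, minus strand) fell most, from 88.5 and 79.7 CPM to 65.3 and 64.9 CPM (log2 −0.37 ± 0.07, adjusted p = 0.00302). Mrps34 (chromosome 17, 24895116 to 24897502, plus strand), specific to mitochondria, went from 52.3 and 50.2 CPM to 41.2 and 39.02 CPM (log2 −0.36 ± 0.08, adjusted p = 0.00560), and 37.0% of its exon bases are shared with Nme3. Mrps9 and Mrps15 encode proteins with bacterial counterparts. Mrps9 went from 45.7 and 45.0 CPM to 35.0 and 37.6 CPM (log2 −0.32 ± 0.08, adjusted p = 0.0121). Mrps15 went from 49.6 and 47.0 CPM to 39.6 and 38.1 CPM (log2 −0.32 ± 0.08, adjusted p = 0.0111). Mrps27, an RNA-binding protein with pentatricopeptide repeats, went from 69.1 and 67.0 CPM to 57.8 and 55.9 CPM (log2 −0.26 ± 0.07, adjusted p = 0.0154). In these 5 genes both auxin libraries lay below both others, as in 79.3% of tested S-named members. This adds little to their calls, which rest on the same libraries. Mrps9, Mrps15 and Mrps27 lost their call without replicate 1 of the libraries without auxin, Mrps27 also with auxin replicate 2 left out. Mrps22, at log2 −0.28 ± 0.10, and Mrps16, at −0.24 ± 0.09, lay just outside the threshold with adjusted p of 0.0563 and 0.0571.

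The bacterial small-subunit protein S18 has 3 versions among the members, and their levels differed in how far they moved. Mrps18b had the highest mean level per kilobase of exon without auxin, 40.3 CPM per kb against 11.2 for Mrps18a and 23.0 for Mrps18c, and fell, as above. Mrps18a, whose protein sits in the large subunit, stood at 43.6 and 39.2 CPM without auxin and 39.2 and 35.7 CPM with auxin (log2 −0.15 ± 0.09, adjusted p = 0.236). Mrps18c, the version at the ancestral small-subunit place, stood at 24.0 and 25.6 CPM without auxin and 23.4 and 20.5 CPM with auxin (log2 −0.18 ± 0.10, adjusted p = 0.221). Neither of the latter was called, and differences between the 3 genes were not tested. Mrps30, also in the large subunit, stood at 81.5 and 79.9 CPM and at 76.0 and 72.8 CPM (log2 −0.12 ± 0.06, adjusted p = 0.196). Mrps36 stood at 10.3 and 11.3 CPM and at 10.1 and 11.1 CPM, with overlapping groups (log2 −0.03 ± 0.14, adjusted p = 0.906).

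A few members did not share the downward direction. Mrps2, a conserved small-subunit protein, stood at 166 and 154 CPM without auxin and 172 and 161 CPM with auxin (log2 0.06 ± 0.06, adjusted p = 0.487). Its groups overlapped. Mrpl14, a conserved protein at the subunit interface (chromosome 17, 45686322 to 45698495, plus strand), stood at 20.5 and 17.8 CPM without auxin and 23.4 and 22.1 CPM with auxin. Both auxin libraries were higher, but the difference did not pass the threshold (log2 0.25 ± 0.11, adjusted p = 0.113). Mrps23 had 35.3 and 35.1 CPM without auxin and 39.2 and 36.1 CPM with auxin (log2 0.09 ± 0.08, adjusted p = 0.440). The other positive values were Mrpl33 at 0.07 ± 0.10, Mrpl23 at 0.05 ± 0.18, Mrps33 at 0.01 ± 0.18 and Mrpl38 at 0.01 ± 0.07, none of them called. Mrpl53 (chromosome 6, 83109095 to 83109939, plus strand) could not be fitted: it held 0, 2, 0 and 3 counts in the 4 libraries. Of its 735 exon bases 87.1% are shared on the same strand with Ccdc142, so this low count is not a measure of its expression.

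Levels per kilobase of exon spanned a wide range. Among L-named members Mrpl52 had the highest mean without auxin on this scale, 142 CPM per kb, followed by Mrpl42 with 132, whose libraries overlapped those of Mrpl52, and Mrpl34 with 86.9. Mrpl34 fell (55.1 and 57.1 CPM to 44.8 and 46.3 CPM, log2 −0.30 ± 0.07, adjusted p = 0.0104, lost without replicate 2 of the libraries without auxin), and Mrpl42 was not called (93.6 and 82.0 CPM to 82.9 and 75.2 CPM, log2 −0.15 ± 0.08, adjusted p = 0.169). Among S-named members the highest were Mrps16 with 64.3, Mrps12 with 59.7 and Mrps2 with 54.7 CPM per kb. Mrps12, the homologue of a protein of the decoding centre, stood at 62.9 and 61.2 CPM and at 56.0 and 52.8 CPM (log2 −0.19 ± 0.07, adjusted p = 0.0640). The lowest were Mrpl48 with 2.38 and Mrpl23 with 2.76 CPM per kb, and Mrps10 with 4.08 and Mrps33 with 4.55. Mrps10 stood at 33.1 and 32.9 CPM and at 29.6 and 28.9 CPM (log2 −0.17 ± 0.08, adjusted p = 0.151). Exon length in the table is the union over all transcripts of a gene name, so members with long alternative exons appear low on this scale.

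**Figure D3:**
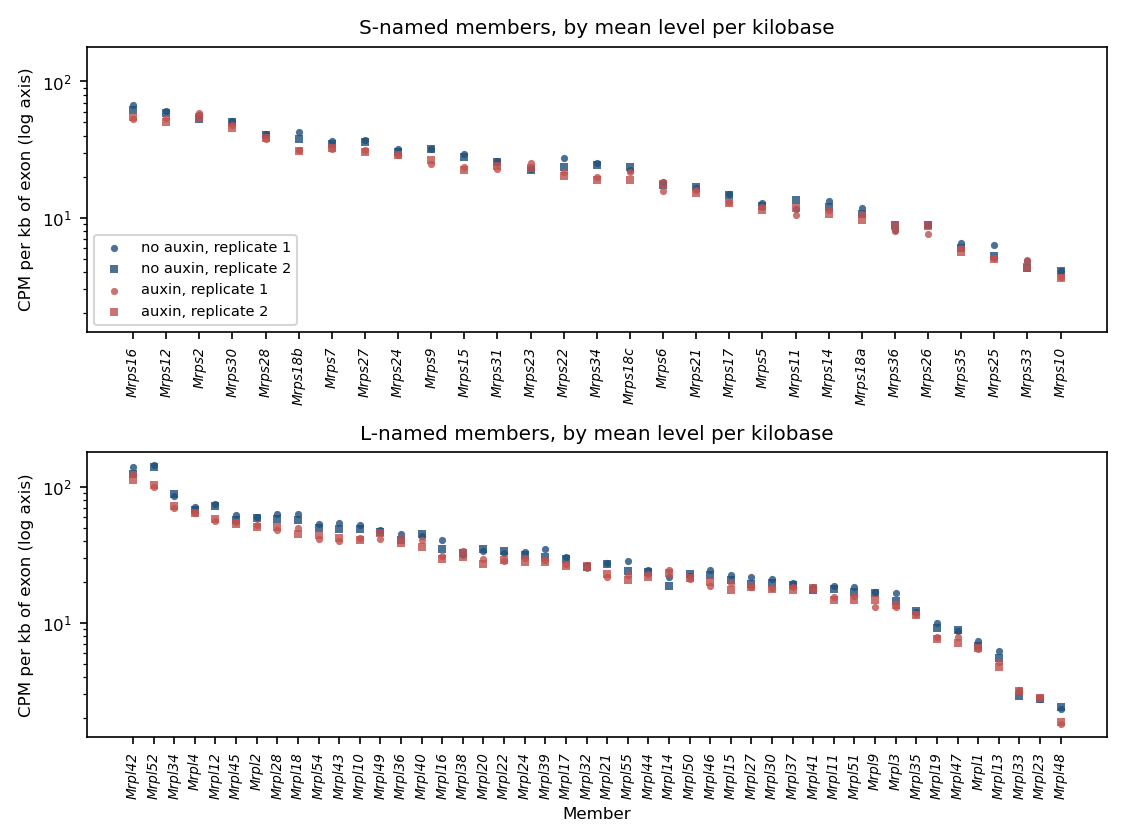
Level of each tested member per kilobase of exon (CPM per kb, log y axis) in the 4 libraries, ordered from high to low within S-named members (top) and L-named members (bottom). Mrpl42 and Mrpl52 lead the L-named members and Mrpl48 is lowest, and auxin libraries (red) lie at or below the others (blue) in most members.

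Fold changes in these libraries moved with abundance, so the members were set against genes of like level. The median log2 fold change of all tested genes was 0.22 where the mean log2 CPM was under 1, and −0.22 where it was 9 or more. Members lay at 4.35 to 6.37 log2 CPM from their 10th to their 90th percentile. In that range stood 4305 genes that are no members, of which 12.2% were called lower and 13.9% higher, with a median of −0.01. The 59 members in the same range had 20 called lower (33.9%), 0 higher and a median of −0.20. For each member the median change of all other genes within 0.25 log2 CPM was then subtracted, and 70 of 75 members lay below that local median, by −0.19 in the median. The gap was −0.16 for S-named members (27 of 29 below) and −0.20 for L-named members (43 of 46 below). The 5 members above their local median were Mrpl14, Mrps2, Mrps23, Mrpl38 and Mrpl33.

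**Figure D4:**
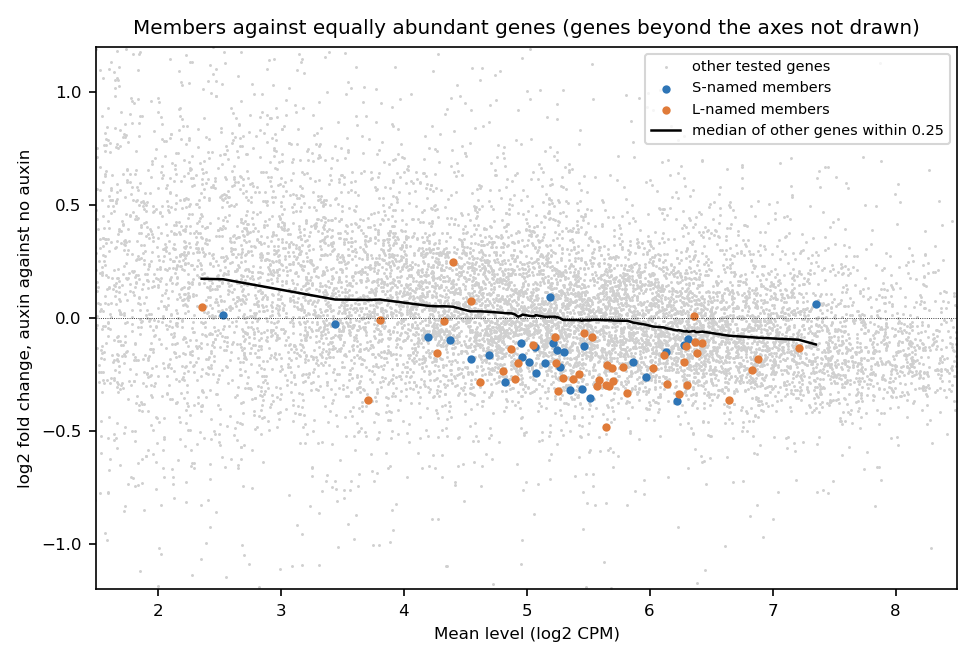
Log2 fold change with auxin (y axis) against mean level in log2 CPM (x axis) for S-named members (blue), L-named members (orange) and the other tested genes (grey), with the local median of other genes within 0.25 log2 CPM of each member (line). Most members lie below the line, 70 of 75, with Mrpl52 farthest from it (−0.47).

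Members were also shorter than other genes, and the gap was smaller against genes of like length. Their median exon length was 1708 bases against 3658 over all tested genes. Against genes within 0.25 log2 CPM and within 1.5 times in exon length, a comparison chosen after seeing the data, 62 of 75 members lay below the local median, by −0.14 in the median. These windows held as few as 6 genes and 214 in the median, against 594 and 1056 without the match for length, so some local medians rest on few genes. Against genes of like level per kilobase the gap was −0.12, again with 62 below. Without replicate 1 of the libraries without auxin the members' median lay −0.15 from that of equally abundant genes, in place of −0.19.

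Other parts of the mitochondrial translation system were read from fixed lists, for comparison, against 14.5% of all tested genes called lower and 13.0% higher. For assembly factors, translation factors and synthetases the share called lower was near that background. Of 7 further mitoribosomal proteins without an Mrp symbol 2 fell and 0 rose (median −0.16). These were Ict1, a peptidyl-tRNA hydrolase built into the large subunit, from 34.6 and 35.2 CPM to 28.7 and 28.2 CPM (log2 −0.30 ± 0.08, adjusted p = 0.0224), and Gadd45gip1, a protein near the exit tunnel (log2 −0.22 ± 0.06, adjusted p = 0.0278). Mrp63, now also named Mrpl57, had log2 0.03 ± 0.12 (adjusted p = 0.871). Of 23 mitoribosome assembly factors 3 fell (median −0.11): Ybey, an endonuclease (log2 −0.37 ± 0.12), Ftsj2, an rRNA methyltransferase (−0.35 ± 0.12), and Fastkd2, an RNA-binding protein (−0.33 ± 0.09), with adjusted p of 0.0416, 0.0418 and 0.0214. Of 15 translation factors 3 fell (median −0.05): the elongation factor Tufm (log2 −0.30 ± 0.06), the mRNA-binding Lrpprc (−0.21 ± 0.05) and the membrane insertase Oxa1l (−0.18 ± 0.06). Of 17 mitochondrial tRNA synthetases 3 fell (Hars2 at log2 −0.29, Yars2 at −0.26 and Aars2 at −0.23, list median −0.15). None of these lists had a called rise. Without replicate 1 of the libraries without auxin the calls were 0, 1, 0 and 0 in the order given, and DESeq2 called 0 further mitoribosomal proteins, assembly factors and synthetases.

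The tested RNAs of the mitochondrial genome showed no called fall. Of the 13 mitochondrially encoded mRNAs 7 passed the filter and 0 were called (median log2 fold change 0.08). The other 6 (mt-Co2, mt-Co3, mt-Atp6, mt-Atp8, mt-Nd3 and mt-Nd4l) held 0 to 15 counts per library, where mt-Co1 held 134110 to 161680. Counts this low are not read here as their expression, and their cause was not tested. The highest of the 7 tested, mt-Nd6 and mt-Co1, had log2 0.28 ± 0.13 and 0.19 ± 0.08 with adjusted p of 0.127 and 0.101, both named after their values were seen. The 2 mitochondrial rRNAs were not called (median 0.05), and their levels spread widely within groups: mt-Rnr1 stood at 4584 and 3212 CPM without auxin and at 5698 and 2341 CPM with auxin. Calls here turned on single libraries: with auxin replicate 1 left out, 3 of the mRNAs and both rRNAs were called lower, and with auxin replicate 2 left out, 5 of the mRNAs and both rRNAs were called higher. The libraries were selected for polyadenylated RNA. Of 15 genes for mitochondrial transcription, RNA processing and DNA maintenance 4 fell and 0 rose (median −0.12), against 14.5% lower and 13.0% higher over all tested genes. The count was 2 with DESeq2, and also 2 when either replicate 1 of the no-auxin group or replicate 2 of the auxin group was left out. Those called were led by the helicase Supv3l1 (log2 −0.35 ± 0.07, adjusted p = 0.00293), the tRNA-processing enzyme Elac2 (−0.27 ± 0.06) and the exonuclease Mgme1 (−0.26 ± 0.08).

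Regulators, respiratory subunits and cytosolic ribosomal proteins were read against the same background of 14.5% lower and 13.0% higher. Of 12 tested regulators of nuclear genes for mitochondria 5 fell and 0 rose (median −0.17). Myc, a transcription factor that promotes growth, went from 63.1 and 61.1 CPM to 26.5 and 27.8 CPM (log2 −1.19 ± 0.08, adjusted p = 2.705e-06). Pprc1, a coactivator of the PGC-1 family, went from 507 and 484 CPM to 405 and 387 CPM (log2 −0.32 ± 0.05), and Mycn had log2 −0.32 ± 0.07. Nrf1, Gabpa and Yy1 themselves were not called, with log2 −0.16 ± 0.07, −0.07 ± 0.06 and −0.16 ± 0.06. Of 75 nuclear-encoded respiratory chain and ATP synthase subunits 33 fell and 0 rose (median −0.17), led by Ndufb6 of complex I (log2 −0.31 ± 0.07, adjusted p = 0.00864), Atp5d of ATP synthase (−0.29 ± 0.05) and Ndufs8 of complex I (−0.28 ± 0.08). Of 77 cytosolic ribosomal protein genes 72 fell and 0 rose (median −0.23), among them Rps13 (log2 −0.38 ± 0.05), Rpl27 (−0.36 ± 0.05) and Rpl8 (−0.34 ± 0.05). With no factors 2 of the respiratory genes and 36 of the cytosolic ribosomal genes were called lower, and without replicate 1 of the libraries without auxin 15 respiratory genes were (18 without replicate 2 of that group, 21 with DESeq2). The background of 14.5% is not matched for level. Without auxin the cytosolic ribosomal genes summed to 52321 and 51573 CPM and the respiratory genes to 12471 and 12343 CPM. Of all tested genes 40.3%, 52.3% and 64.1% were called lower at a mean log2 CPM of 7 to 8, 8 to 9 and 9 or more. Their medians were −0.12, −0.17 and −0.22. These lists were not set against genes of like level. They also differ in the error of each change, and differences between them were not tested.

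**Figure D5:**
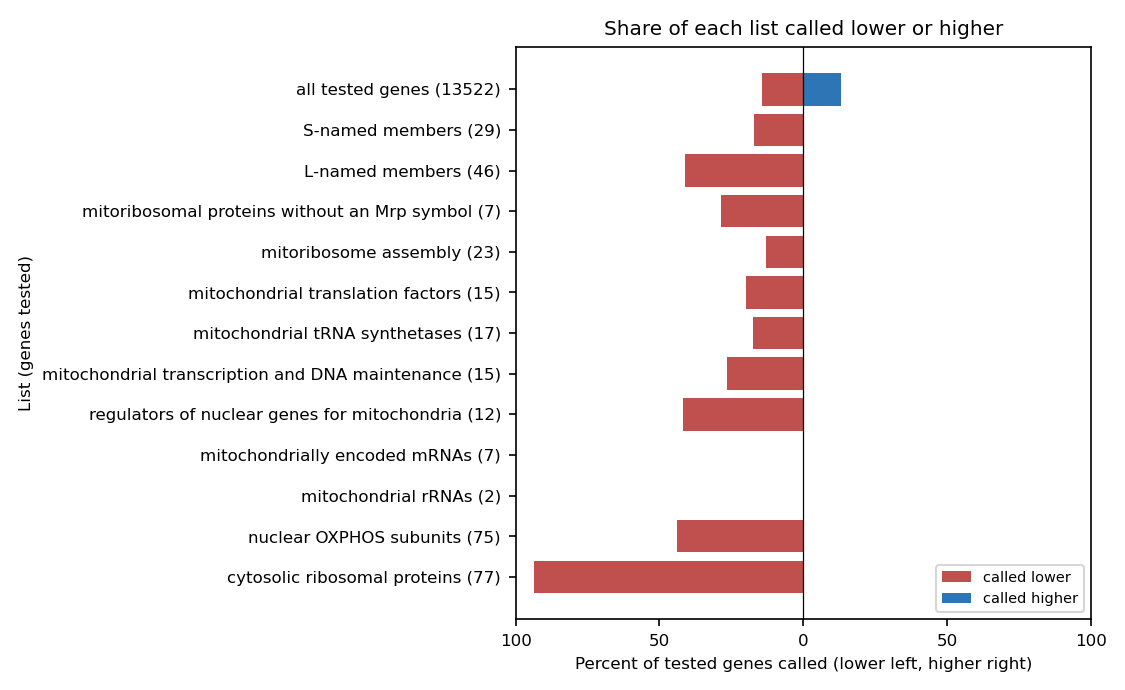
Percent of the tested genes of each list called lower (red, to the left) or higher (blue, to the right) with auxin, with the number tested in brackets. L-named members have 41.3% lower and S-named members 17.2%, against 14.5% lower and 13.0% higher over all tested genes. This background is not matched for level.

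Many members share a start region with a gene on the opposite strand. A head-to-head neighbour, with its 5′ end within 1 kb, was found for 32 of 76 members (42.1%) and for 21.5% of tested genes that are no members. Counting used strand, so reads of the partners were kept apart. Of 28 neighbours that were tested 9 fell, 1 rose and 18 were not called. They include Mrpl46, which fell, and Mrps11, both members. Over all tested genes 14.5% fell and 13.0% rose, a background not matched for level. Among those that fell were the abundant Tcp1 and Ncapd2, with means of 601 and 449 CPM without auxin. Of all tested genes at a mean log2 CPM of 8 to 9 and of 9 or more, 52.3% and 64.1% were called lower. The members' neighbours were not tested as a group. Of 9 called members with a tested neighbour, 2 had a neighbour that also fell. Most of the 9 neighbours that fell lie beside members that were not called. The 2 pairs were Mrps18b with Ppp1r10, a phosphatase regulator whose start lies 45 bases away (log2 −0.31 ± 0.06, adjusted p = 0.00291), and Mrpl18 with Tcp1, a chaperonin subunit (−0.24 ± 0.05, adjusted p = 0.00588). Mrpl14, the member with the highest value, shares its start region with the neighbour that rose, Tmem63b, from 103 to 125 CPM in the mean (log2 0.28 ± 0.06, adjusted p = 0.00491). Mrpl43 fell while Peo1, which encodes the mitochondrial DNA helicase on the other strand, had log2 0.07 ± 0.07 and was not called. Mrpl46 and Mrps11 are each other's neighbours, with log2 −0.27 ± 0.09 (called) and −0.16 ± 0.11 (not called). The median change was −0.19 for the 31 tested members with a neighbour and −0.19 for the 44 without.

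H3K27me3 peaks in control cells were found at the start of 1 member, Mrpl23. A peak within 1 kb of the 5′ end was found in the ChIP-seq list for 1 of 76 members, against 9.16% of all genes placed, 6.95% of tested genes and 1.67% of equally abundant genes. In the CUT&RUN list it was again 1 of 76, against 13.3%, 7.69% and 1.49%. Both peaks lay before Mrpl23 (chromosome 7, 142532799 to 142540747, plus strand). The share was close to that of equally abundant genes, which lie at 4.35 to 6.37 log2 CPM. Mrpl23, at 2.36 log2 CPM, lies outside that range, so the 2 shares do not cover genes of like level. The ChIP-seq peak (chr7:142531674-142532639) ended 160 bases from the 5′ end and had a fold enrichment of 3.36 with a −log10 q of 1.81, as the authors' peak caller gave them. The CUT&RUN peak (chr7:142531036-142531809) ended 990 bases away, with 2.90 and 1.49. The lists' median fold enrichments were 3.29 and 3.04. With a −log10 q of at least 3, 0 members had one in either list. Mrpl23 itself stood at 4.92 and 4.88 CPM without auxin and 5.09 and 5.05 CPM with auxin (log2 0.05 ± 0.18, adjusted p = 0.867). Peaks came from 1 sample per assay of cells without auxin, so the mark was not compared between conditions.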

How the data were processed

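RNA-seq counts are the authors' raw fragment counts per gene name, made with featureCounts 1.6.3 on exons of an mm10 annotation, paired and strand-specific (setting 2), per the file headers; the exon length comes from the same deposited table. Alignment tools listed are STAR 2.6.1d and Bowtie2 2.4.1, per the submitters' processing notes. The deposited peak lists give, for each peak, the authors' score, fold enrichment (a ratio) and −log10 p and q; MACS2 2.1.1 is listed in those notes, and no source used here gives their control or threshold. Libraries held 13353446 to 16046290 counts.

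Genes passing edgeR's expression filter were fitted with TMM factors and the quasi-likelihood test (edgeR 4.0.16, R 4.3.3), auxin against no auxin, 2 libraries each, with Benjamini-Hochberg adjustment over all 13522 tested genes and a threshold of 0.05. CPM values are scaled by TMM factors. The procedure was also run on simulated counts with known changes in both directions and libraries drawn independently. That simulation held no shift with abundance and no shared deviation of same-numbered libraries, so it does not check the calls against either. Equally abundant genes are the tested genes that are no members between the members' own abundance bounds of 4.35 and 6.37 log2 CPM. Peaks were joined to 5′ ends within 1 kb.

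Alternatives were DESeq2 1.42.0, other scaling factors and filters, a replicate block, each library left out, other windows and a peak minimum. The comparison with genes of like length was added after seeing the data. The members and lists were chosen with earlier results of these data known. Members named with values are, per S and L name, the 6 called with the largest change, the 3 highest and 2 lowest per kilobase, some fixed for their roles, those not tested and those with peaks in both lists; in each pathway list the 3 largest called falls were named.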

Additional observations from a re-analysis of the deposited data

How the results depend on the processing

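Calls depended on the setting, while 4 members (Mrpl52, Mrpl12, Mrps18b and Mrps34) stayed called lower in all 12 alternatives, and the members' median minus that of equally abundant genes ran from −0.15 to −0.20. That range covers the alternative fits, and a change of scaling factors alone could hardly move it. The gap to the local median was smaller against genes of like exon length (−0.14) and of like level per kilobase (−0.12). Counts below are called lower unless said to be higher, and the cause of each shift was not tested. With no factors the balance of all genes turned from 1964 lower and 1759 higher to 988 and 2735, and with upper-quartile factors to 1698 and 2024. With no factors there were 7 members lower and 1 higher (S-named 2, L-named 5 and 1 higher) and medians of −0.10, −0.056 (S) and −0.12 (L). The lists then gave 0 further mitoribosomal proteins, 0 assembly factors (1 higher), 1 translation factor (1 higher), 0 synthetases, 1 transcription gene, 2 mitochondrial mRNAs higher, 2 OXPHOS subunits (1 higher) and 36 cytosolic ribosomal proteins. DESeq2 gave 881 genes higher, 13 members, 9 L-named members, 0 further mitoribosomal proteins, 0 assembly factors, 0 synthetases, 2 transcription genes and 21 OXPHOS subunits. Upper-quartile factors gave 1 assembly factor (1 higher), 1 synthetase and 2 transcription genes. The filter of CPM at least 1 gave 1 assembly factor higher, and that of any read 1 mitochondrial mRNA lower and 3 higher.

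Leaving out 1 library assumes that the lone library varies like the other group. The lowest and highest counts were then 1257 and 1914 for all genes, 6 and 27 for members, 2 and 7 for S-named and 4 and 21 for L-named members, with medians from −0.22 to −0.15 (members) and −0.25 to −0.16 (L-named). They were 0 and 2 for further mitoribosomal proteins, 1 and 2 for assembly factors, 0 and 3 for translation factors (0 and 1 higher), 0 and 4 for synthetases, 2 and 4 for transcription genes, 0 and 3 for mitochondrial mRNAs (0 and 5 higher), 0 and 2 for rRNAs (0 and 2 higher) and 15 and 26 for OXPHOS subunits.

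The replicate block was run because groups share numbers; same-numbered libraries' deviations correlated at 0.227 over 13522 genes, at 0.522 in the 6761 of higher level and at 0.269 over 75 members, with 2 pairs and no label of a shared batch, so the numbers were not taken as a pairing. The block called 3177 genes lower and 2972 higher, 45 members lower and 1 higher (S-named 13, L-named 32 and 1 higher), 5 further mitoribosomal proteins, 7 assembly factors (1 higher), 1 translation factor higher, 7 synthetases, 2 mitochondrial mRNAs lower and 3 higher, and 1 OXPHOS subunit higher. For H3K27me3, a −log10 q of at least 3 left 0, 0 and 0 members (ChIP-seq, CUT&RUN, both), 0.5 kb left 0 with CUT&RUN and 0 with both, and 2 kb gave 2 with CUT&RUN. Depth limits members of low count such as Mrpl23 and Mrps33, whose standard errors were 0.18.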
